A study of Mus musculus with 23 samples.

Results

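The ketone body genes described here are Bdh1, Oxct1, Acat1, Slc16a1 and Slc16a7, 5 of the 35019 gene symbols on the array and 8 of its 55681 probes. They are 3 enzymes and 2 membrane carriers, taken by their symbols in the scanner files. Where a gene has more than 1 probe, the probe with the highest mean signal over all 23 arrays stands for it. Bdh1 is given first because it was called between 2 of the groups in earlier results of these same arrays, so that contrast of Bdh1 is a description and is not independent evidence. The samples are circumvallate papillae, which hold a large share of the taste buds of the mouse tongue, from male C57Bl6/j mice. The 8 DIO-R samples carry a label with no definition and are taken to be the DIO mice whose energy intake was cut to 60% of free intake. The 8 DIO samples came from mice with free access to a fattening diet whose fat is largely saturated, and the 7 Lean samples from mice freely fed a chow with 3% fat by weight. The labels give neither the age, the length of the diets, the hour of sampling nor whether each sample is a separate animal, so p-values measure the spread between these samples, which may in part be technical. The 3 comparisons ask how restricted obese mice differ from freely fed obese mice, how they differ from lean mice, and how freely fed obese mice differ from lean mice.

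Ketone bodies are small acids that the liver makes from fatty acids, above all in fasting, and that other tissues burn in place of glucose. They enter cells through monocarboxylate carriers. Inside mitochondria 3-hydroxybutyrate is oxidised to acetoacetate, acetoacetate is charged with coenzyme A, and a thiolase splits the product into acetyl-CoA for the citric acid cycle. Bdh1 encodes the mitochondrial 3-hydroxybutyrate dehydrogenase, Oxct1 the coenzyme A transferase that commits acetoacetate to oxidation, and Acat1 the mitochondrial acetoacetyl-CoA thiolase, which also works in isoleucine breakdown and in ketone body synthesis. Slc16a1 encodes MCT1, a widely expressed carrier of lactate, pyruvate and ketone bodies, and Slc16a7 encodes MCT2, a carrier with a higher affinity for such acids.

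The array holds 3 probes of Bdh1, all on the plus strand of chromosome 16, and the Bdh1 results rest on them. Their first 30 bases are shown, in the order of their mean signal, to make plain that they are separate oligonucleotides whose positions do not overlap.
brightest Bdh1 probe, chr16:31457378-31457437 (mm9): tgggtggccctaaacctcagggccaatatg
second Bdh1 probe, chr16:31457249-31457308 (mm9): gtttaccttttgattagctgttgaggatta
dimmest Bdh1 probe, chr16:31458195-31458254 (mm9): tggtcacctcttctttgtattgggaacttc
Positions are those the file headers' annotation gives. Exon and untranslated region boundaries of that build were not used here. Slc16a7 has 2 probes on the minus strand of chromosome 10 (chr10:124665183-124665242 and chr10:124663576-124663635, mm9), and the second was well above background on 0 of 23 arrays. The other members have 1 probe each, for Oxct1 on chromosome 15 (chr15:4105196-4105255, plus strand), for Acat1 on chromosome 9 (chr9:53389868-53389927, minus strand) and for Slc16a1 on chromosome 3 (chr3:104462276-104462335, plus strand), all in mm9.

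Values are log2 signals relative to the 75th percentile of the same array, called relative signals below. They allow a gene to be compared between samples but not 1 gene with another. The leading probe of each of the 5 members was well above background on 23 of 23 arrays, and all 5 passed the filter on dim probes together with 28365 genes in all. All 18 taste cell genes looked up were well above background on 23 of 23 arrays. So were 22954 of the 35019 gene symbols, so this detection does not by itself identify the tissue. No array had a saturated spot, each array had 66.9% to 78.4% of its probes well above background, and correlations between arrays lay between 0.960 and 0.991. The arrays lie on 3 slides, each of which holds every group. Differences were tested with limma over all genes kept, with Benjamini-Hochberg adjustment, and called at an adjusted p under 0.05. The number of arrays, 7 or 8 in a group, limits the precision.

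Among the 5 members, 1 was called in DIO-R against DIO, Bdh1, where 0.0599% of all genes were called. This is the contrast for which Bdh1 had been picked out. No member was called in DIO-R against Lean, where 0.127% of all genes were called, nor in DIO against Lean, where 0.00353% were. Without adjustment, 2 members had a limma p under 0.05 in DIO-R against DIO (9.73% of all genes), 2 in DIO-R against Lean (8.95%) and 1 in DIO against Lean (8.95%). The 3 comparisons share arrays pairwise and are not independent of each other.

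**Figure D1:**
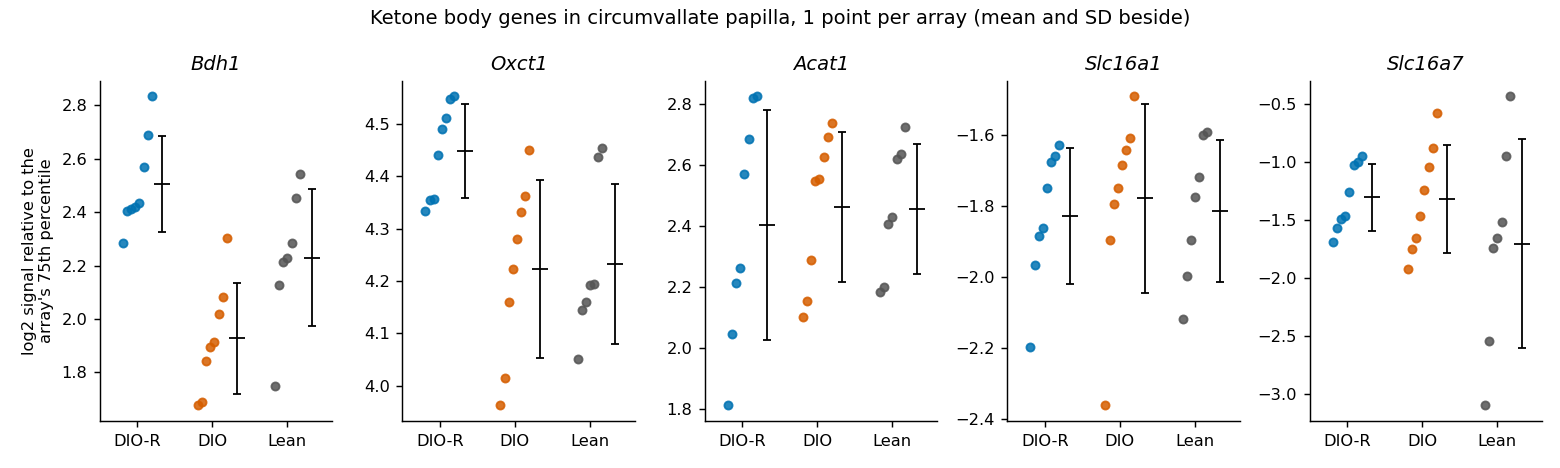
Relative signal of the 5 members (log2 scale on the y axis, which does not start at 0 and differs between panels) on each array of the DIO-R, DIO and Lean groups; bars give the mean and SD. For Bdh1, 7 of the 8 DIO-R points lie above all DIO points, and for Slc16a7 the Lean points span the range from -3.10 to -0.44.

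Bdh1, the enzyme that interconverts 3-hydroxybutyrate and acetoacetate, was higher in restricted than in freely fed obese mice. Its relative signal had a lowest, median and highest value of 2.29, 2.43 and 2.83 in DIO-R, of 1.68, 1.90 and 2.30 in DIO, and of 1.75, 2.23 and 2.54 in Lean. All DIO-R arrays lay above the DIO mean, and 7 of 8 lay above every DIO array. The means were 2.51 ± 0.18 in DIO-R, 1.93 ± 0.21 in DIO and 2.23 ± 0.26 in Lean (SD, n = 8, 8 and 7). Bdh1 rose 1.49-fold in DIO-R against DIO (log2 difference 0.58 ± 0.11 SE, 95% interval 0.35 to 0.80, limma adjusted p = 0.0391). By its p it ranked 17 of the 17 genes called, so it is the called gene nearest to the threshold. In papilla RNA, more cells of a type that holds Bdh1 and more Bdh1 RNA per cell cannot be told apart.

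Against Lean, Bdh1 lay on either side. The log2 difference was 0.28 ± 0.11 in DIO-R against Lean (limma adjusted p = 0.459), with 8 of 8 DIO-R arrays above the Lean mean and 3 of 8 above every Lean array. It was -0.30 ± 0.11 in DIO against Lean (limma adjusted p = 0.421), with 7 of 8 DIO arrays below the Lean mean. The groups thus stood in the order DIO-R, Lean and DIO from high to low, and neither pair of neighbours in that order differed past the threshold.

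The higher Bdh1 signal in DIO-R was present on each slide. The difference between DIO-R and DIO was 0.71 on slide 1 (2 and 3 arrays), 0.54 on slide 2 (3 and 3 arrays) and 0.56 on slide 3 (3 and 2 arrays). With the slide as a block it was 0.58, and the call was lost (limma adjusted p = 0.0575). The call also depended on single arrays. It held in 7 of the 23 fits that left out 1 array, and was lost without any of DIO-R 3, 4, 5, 6, 8 or 10, DIO 1, 2, 5, 6, 7 or 8, or Lean 4, 5, 6 or 10, with differences of 0.53 to 0.59 and limma adjusted p between 0.0511 and 0.127 in those fits. Without both DIO 1 and DIO 6, picked from earlier results, it was 0.52 (limma adjusted p = 0.184). By the marker scores described below, these are the DIO arrays lowest in type II taste cell genes, but not in every taste cell list.

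The 3 Bdh1 probes ordered the groups alike. The second probe had a lowest, median and highest relative signal of 1.42, 1.56 and 1.95 in DIO-R, of 0.76, 1.09 and 1.44 in DIO, and of 0.92, 1.43 and 1.76 in Lean. The dimmest probe had -1.82, -1.35 and -1.08 in DIO-R, -2.32, -1.93 and -1.42 in DIO, and -1.96, -1.68 and -1.32 in Lean. Ranges of DIO-R and DIO overlapped at both. The log2 difference between DIO-R and DIO was 0.58 at the brightest probe, 0.50 at the second and 0.44 at the dimmest. Put in place of the brightest probe, the second had a limma adjusted p of 0.158 and the dimmest of 0.422, so the call rests on the probe chosen by its brightness. Over the 23 arrays the brightest probe correlated with the second at r = 0.97 and with the dimmest at r = 0.87. The probes share arrays and transcript and are not replicates.

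**Figure D2:**
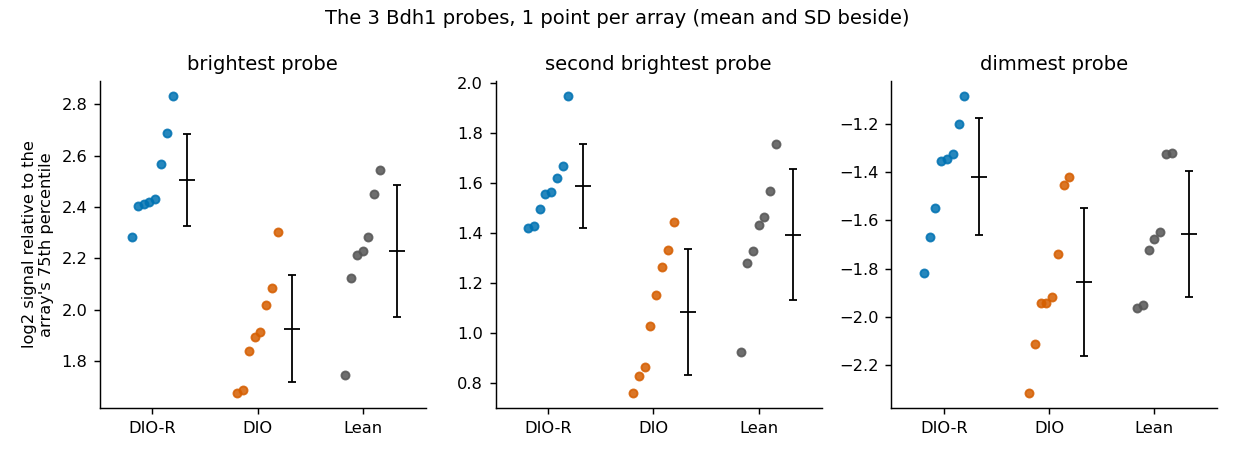
Relative signal (log2) of the 3 Bdh1 probes on each array of the DIO-R, DIO and Lean groups, with the mean and SD beside the points; y axes differ between panels and do not start at 0. The DIO-R mean lies above the DIO mean by 0.58, 0.50 and 0.44, and the Lean mean lies between them at each probe.

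The RefSeq promoter table of assembly GRCm38.p6 gave a promoter, from 250 bases before to 50 bases after a start site, for 3 of the 5 members, Bdh1, Oxct1 and Slc16a1. Bdh1 has 2 start sites in it, and both are shown because Bdh1 was the called member. The probes do not report from which start a transcript began.
Bdh1 start 1, chr16:31422047-31422346 (GRCm38.p6, plus strand): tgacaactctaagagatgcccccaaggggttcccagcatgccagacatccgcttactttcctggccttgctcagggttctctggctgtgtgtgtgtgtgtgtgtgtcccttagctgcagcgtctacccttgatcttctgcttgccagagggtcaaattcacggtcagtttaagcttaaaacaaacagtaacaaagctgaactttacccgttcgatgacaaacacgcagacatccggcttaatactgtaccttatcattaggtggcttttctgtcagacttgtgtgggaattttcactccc
Bdh1 start 2, chr16:31428503-31428802 (GRCm38.p6, plus strand): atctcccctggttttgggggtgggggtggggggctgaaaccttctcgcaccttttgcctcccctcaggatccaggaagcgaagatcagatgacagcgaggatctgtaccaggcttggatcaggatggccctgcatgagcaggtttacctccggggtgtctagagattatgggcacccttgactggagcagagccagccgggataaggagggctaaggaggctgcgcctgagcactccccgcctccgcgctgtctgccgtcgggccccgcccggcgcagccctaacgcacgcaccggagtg
The first has a GC content of 48.3% and the second of 63.7%. Motifs were searched on both strands and would stand in capitals. They were the E-box CACGTG, bound by clock activators, the D-box TTATGTAA or TTACGTAA, bound by Dbp, and the direct repeat of AGGTCA with 1 base of any kind between, bound by PPAR with its partner. Dbp, a clock output factor, was itself called in DIO-R against DIO in these arrays (log2 difference 1.98 ± 0.25, limma adjusted p = 0.000715). None of the 3 motifs occurred in either Bdh1 window or in that of Oxct1, and the E-box occurred 1 time in that of Slc16a1. Of the 32851 promoters of that length in the table, 7.15% held the E-box, 1.06% a D-box and 0.0396% the repeat. The absence of these letters from a window says nothing about the factors.

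Oxct1, whose transferase commits acetoacetate to oxidation, had a narrow spread and lay slightly higher in DIO-R than in either other group. Its relative signal had a lowest, median and highest value of 4.33, 4.47 and 4.55 in DIO-R, of 3.96, 4.25 and 4.45 in DIO, and of 4.05, 4.19 and 4.45 in Lean. In DIO-R 8 of 8 arrays lay above the DIO mean and above the Lean mean, and 4 of 8 lay above every array of either group. The log2 difference was 0.22 ± 0.08 in DIO-R against DIO (limma adjusted p = 0.447) and 0.22 ± 0.08 in DIO-R against Lean (limma adjusted p = 0.398), a size of 1.17-fold and 1.16-fold. Neither passed. DIO and Lean differed by -0.01 ± 0.08 (95% interval -0.17 to 0.15). Within slides 1, 2 and 3 the difference between DIO-R and DIO was 0.17, 0.31 and 0.24, and that between DIO-R and Lean was 0.20, 0.29 and 0.24. DIO-R was thus the highest group by mean and by median, and DIO and Lean had no settled order, since their means and medians ran opposite ways.

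Acat1, the thiolase that ends ketone body breakdown, did not separate the groups. Its relative signal had a lowest, median and highest value of 1.81, 2.42 and 2.82 in DIO-R, of 2.10, 2.55 and 2.74 in DIO, and of 2.18, 2.43 and 2.73 in Lean, and the 3 ranges overlapped almost fully. The log2 difference was -0.06 ± 0.14 in DIO-R against DIO (95% interval -0.36 to 0.24), -0.05 ± 0.15 in DIO-R against Lean (-0.36 to 0.25) and 0.01 ± 0.15 in DIO against Lean (-0.30 to 0.31). The lowest limma adjusted p of the 3 was 0.888. On slides 1, 2 and 3 the Acat1 difference was 0.01, -0.27 and 0.22 in DIO-R against DIO. It was 0.03, -0.27 and 0.27 in DIO-R against Lean and 0.02, 0.01 and 0.05 in DIO against Lean. Acat1 varied within each group together with skeletal muscle genes, as described below.

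The carriers did not pass in any comparison. Slc16a1 had a lowest, median and highest relative signal of -2.20, -1.81 and -1.63 in DIO-R, of -2.36, -1.72 and -1.49 in DIO, and of -2.12, -1.77 and -1.59 in Lean. Its log2 differences were -0.05 ± 0.11 in DIO-R against DIO, -0.01 ± 0.12 in DIO-R against Lean and 0.04 ± 0.12 in DIO against Lean, with 95% intervals that all lay between -0.28 and 0.28. These intervals leave room for changes of up to about that size in either direction. On slides 1, 2 and 3 the Slc16a1 difference was -0.36, -0.05 and 0.25 in DIO-R against DIO. It was -0.29, 0.14 and 0.02 in DIO-R against Lean and 0.07, 0.19 and -0.23 in DIO against Lean.

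Slc16a7 was the member with the widest spread. Its relative signal had a lowest, median and highest value of -1.69, -1.36 and -0.95 in DIO-R, of -1.92, -1.35 and -0.58 in DIO, and of -3.10, -1.65 and -0.44 in Lean. The SD was 0.29 in DIO-R, 0.46 in DIO and 0.90 in Lean, and the Lean group held both the lowest and the highest array. The difference in spread was not tested. The log2 difference was 0.01 ± 0.28 in DIO-R against DIO, 0.40 ± 0.29 in DIO-R against Lean and 0.39 ± 0.29 in DIO against Lean, with limma adjusted p of 0.991, 0.707 and 0.766. Single Lean arrays moved these values. In DIO-R against Lean the difference was 0.17 without Lean 6, 0.26 without Lean 3 and 0.61 without Lean 7, and in DIO against Lean it was 0.16, 0.25 and 0.60 without the same arrays. Within slides 1, 2 and 3 it was 0.23, 0.76 and 0.56 in DIO-R against Lean and -0.11, 0.76 and 0.74 in DIO against Lean. With normexp it was 0.17 in both comparisons, and the mean of both probes, of which the second was well above background on 0 of 23 arrays, gave 0.10 in DIO-R against Lean. The interval of 0.40 ran from -0.21 to 1.01, so a change of up to 1 log2 unit could not be told from none at this spread.

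**Figure D3:**
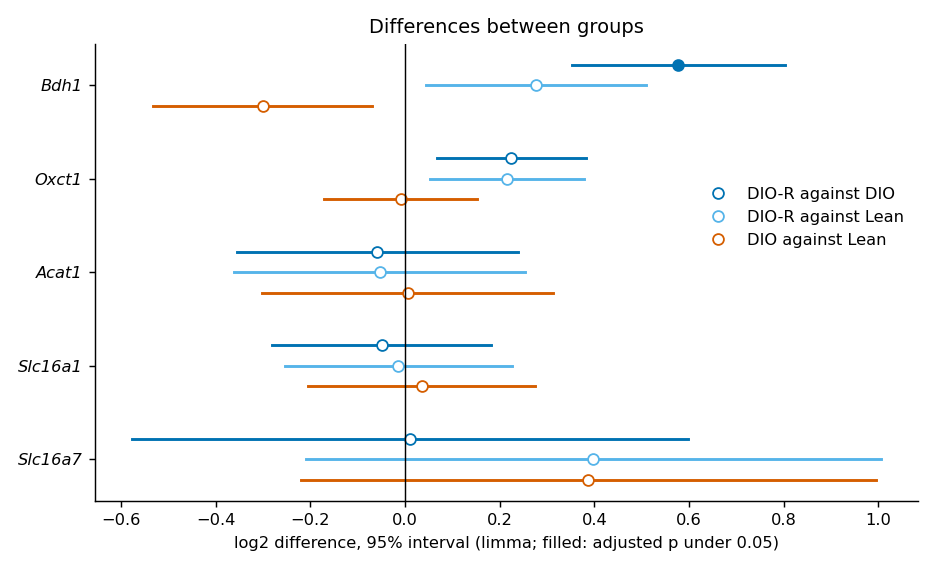
Log2 difference (x axis) of each member in DIO-R against DIO, DIO-R against Lean and DIO against Lean, with 95% intervals from limma; the filled point is the call at an adjusted p under 0.05. Bdh1 in DIO-R against DIO, at 0.58, is the single filled point, and the Slc16a7 intervals are the widest.

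The median log2 difference of the 5 members was 0.01 in DIO-R against DIO, 0.22 in DIO-R against Lean and 0.01 in DIO against Lean. The value of 0.22 is that of Oxct1, which was not called. Over all 28365 genes kept the median was 0.01, -0.02 and -0.04 in the same comparisons.

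Across the 23 arrays the members varied mostly apart from each other. Of the 10 pairs of members, none had a correlation that passed Benjamini-Hochberg adjustment. The closest relation was between Bdh1 and Oxct1, with Pearson r = 0.44 (permutation p = 0.0381, adjusted p = 0.278) and Spearman rho = 0.43 (permutation p = 0.0419, adjusted p = 0.209). It fell to r = 0.30 without the 2 arrays farthest from the Bdh1 median, and was 0.40, 0.86 and 0.49 within slides 1, 2 and 3. Within the groups it was 0.22 in DIO-R, 0.17 in DIO and -0.22 in Lean, each below the value over all arrays. Oxct1 and Acat1, the consecutive steps of acetoacetate use, had r = 0.40 (permutation p = 0.0556, adjusted p = 0.278) and rho = 0.51 (permutation p = 0.0128, adjusted p = 0.128). That relation was r = 0.43 without the 2 arrays farthest from the Oxct1 median. It was 0.24, -0.42 and 0.70 within slides 1, 2 and 3, and within groups 0.76 in DIO-R, 0.58 in DIO and 0.72 in Lean.

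The other genes of the pathway were read from 7 lists with 35 genes, of which 29 were kept, and none was called in any comparison. In DIO-R against DIO 14 of the 29 were higher and 15 lower, with a median log2 difference of -0.00, against 51.7% higher over all genes kept. In DIO-R against Lean 7 were higher and 22 lower (median -0.10), where 55.4% of all genes kept were lower. In DIO against Lean 7 were higher and 22 lower (median -0.10), where 58.9% of all genes kept were lower. An unadjusted limma p under 0.05 was reached by 3 higher and 3 lower genes in DIO-R against DIO (9.73% of all genes), by 3 lower genes in DIO-R against Lean (8.95%) and by 5 lower genes in DIO against Lean (8.95%). Oxct2a, Oxct2b, Slc5a12, Hcar1, Fgf21 and Ldhc were too dim to be kept.

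Of the genes of ketone body synthesis, Acat3, a cytosolic thiolase, lay lowest in DIO. Its relative signal had a lowest, median and highest value of -1.97, -1.82 and -1.55 in DIO-R, of -2.46, -2.12 and -1.71 in DIO, and of -2.24, -1.59 and -1.29 in Lean. The ranges of the 3 groups overlapped. The log2 difference was 0.29 ± 0.12 in DIO-R against DIO (limma adjusted p = 0.492), -0.14 ± 0.13 in DIO-R against Lean (adjusted p = 0.773) and -0.43 ± 0.13 in DIO against Lean (adjusted p = 0.296).

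Aacs, a cytosolic enzyme that charges acetoacetate with coenzyme A for lipid synthesis, was the single kept gene of ketone body use beside the members. Its relative signal had a lowest, median and highest value of 1.99, 2.25 and 2.58 in DIO-R, of 1.24, 1.74 and 2.38 in DIO, and of 1.86, 2.41 and 2.61 in Lean. DIO was the low group, with ranges that overlapped. The log2 difference was 0.48 ± 0.15 in DIO-R against DIO (limma adjusted p = 0.422), -0.02 ± 0.15 in DIO-R against Lean (adjusted p = 0.983) and -0.49 ± 0.15 in DIO against Lean (adjusted p = 0.319).

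In the remaining lists the gene with the lowest p in each comparison did not pass either. Among other carriers and their chaperones, Slc16a6, a carrier of the same family, differed by 0.32 ± 0.17 in DIO-R against DIO, Slc16a8 by -0.18 ± 0.12 in DIO-R against Lean, and Emb, a chaperone of such carriers, by -0.14 ± 0.08 in DIO against Lean. Of the receptors, Hcar2, which binds 3-hydroxybutyrate, differed by 0.32 ± 0.13 in DIO-R against DIO and by -0.22 ± 0.14 in DIO against Lean, and Ffar3, a receptor of short-chain fatty acids, by -0.18 ± 0.23 in DIO-R against Lean. Among the regulators, Ppargc1a, a coactivator of mitochondrial genes, differed by -0.86 ± 0.35 in DIO-R against DIO and by -0.91 ± 0.36 in DIO-R against Lean, and Ppara, a nuclear receptor of fatty acids, by -0.19 ± 0.17 in DIO against Lean. The limma adjusted p of these 9 differences lay between 0.442 and 0.832.

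Of the lactate dehydrogenases, Ldhd, which oxidises D-lactate, differed by -0.48 ± 0.22 in DIO-R against DIO and by 0.27 ± 0.23 in DIO against Lean, and Ldhb by -0.23 ± 0.18 in DIO-R against Lean. In isoleucine breakdown, the other pathway of Acat1, the branched-chain dehydrogenase subunit Dbt differed by 0.17 ± 0.12 in DIO-R against DIO. The hydratase Echs1 differed by -0.15 ± 0.08 in DIO-R against Lean and by -0.21 ± 0.08 in DIO against Lean. All 7 kept genes of isoleucine breakdown were lower in DIO than in Lean, with a median of -0.11 and none called, where 58.9% of all genes kept were lower.

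**Figure D4:**
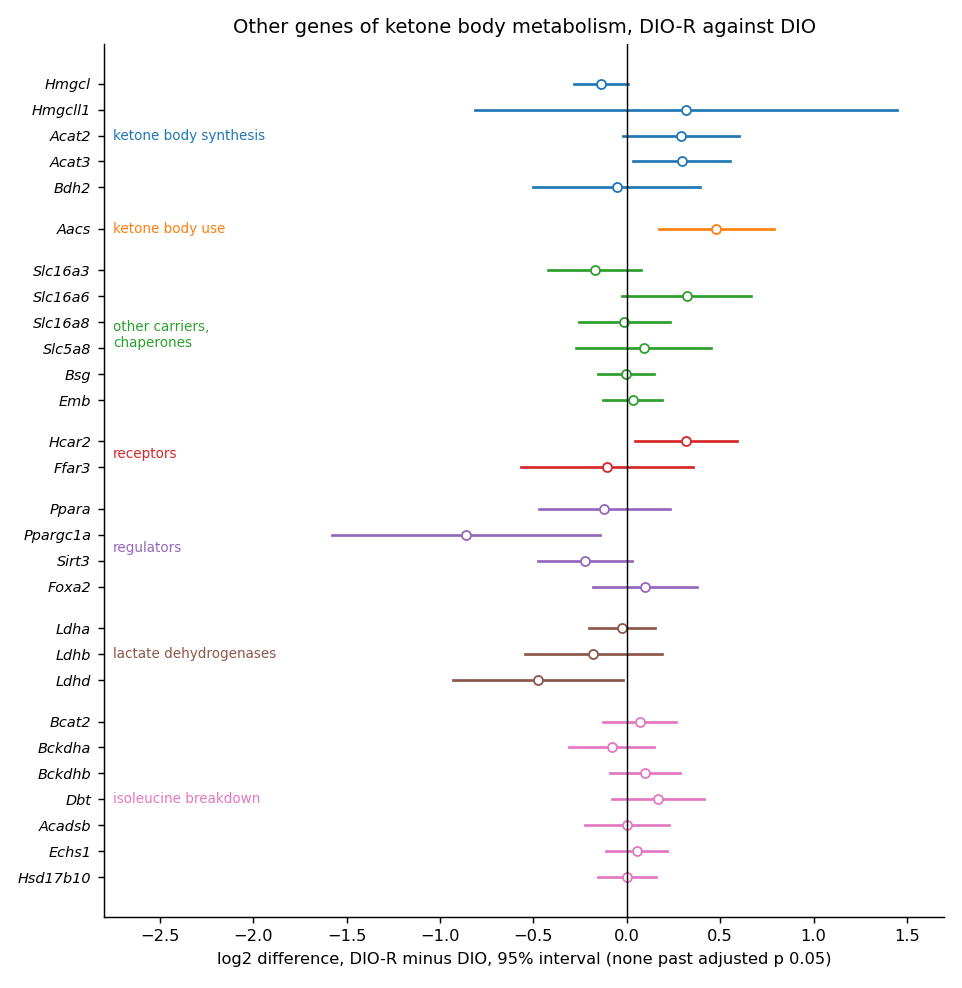
Log2 difference between DIO-R and DIO (x axis) of 28 kept genes of the 7 pathway lists, with 95% intervals from limma; open points mark genes that were not called. Ppargc1a at -0.86 and Ldhd at -0.48 lie farthest to the left, and no point is filled.

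The genes whose signal followed that of Bdh1 most closely over the 23 arrays were Ubqln1, a ubiquitin-binding shuttle (r = 0.926), Pusl1 (r = 0.925), Avpi1 (r = 0.924), Mid1ip1, an activator of acetyl-CoA carboxylase (r = 0.923), and Slc9a3r1, a scaffold of membrane transporters (r = 0.923). By deviations from the group means they were Plcd1, a phospholipase C (r = 0.949), Chit1, a chitinase (r = 0.937), Ubqln1 (r = 0.933), Eif6, a ribosome assembly factor (r = 0.929), and Riox1 (r = 0.927). These are the highest of 28352 genes over 23 arrays that share their RNA, slides and cell makeup, and they describe likeness alone. In DIO-R against DIO these 9 genes differed by 0.18 to 0.47, and none was called. For the genes picked by values over all arrays, group differences included, a direction shared with Bdh1 follows in part from the choice.

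For Oxct1 the closest genes were Aldh4a1, a mitochondrial enzyme of proline breakdown (r = 0.823), Kpna3 (r = 0.783) and Mtch2 (r = 0.767), and by deviations from the group means 1500011K16Rik (r = 0.846), Micos10, a subunit of the mitochondrial cristae complex (r = 0.843), and an unnamed probe. For Acat1 they were Acadm, the medium-chain acyl-CoA dehydrogenase (r = 0.956), Cav3, the caveolin of muscle (r = 0.950), and Tbx15 (r = 0.949), and by deviations an unnamed transcript, Neurl2 (r = 0.965) and Ndrg2 (r = 0.964). For Slc16a1 the named neighbour was E030042N06Rik (r = 0.919 by values and 0.927 by deviations), beside 2 transcripts without a symbol. For Slc16a7 Zfhx2, a transcription factor, came first (r = 0.957 by values and 0.965 by deviations), with C230057A21Rik (r = 0.942 by values). No member was among the closest genes of another member.

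Marker genes of cell types that a dissected papilla can hold moved with some members. Scores, the mean z value of a list's genes, were set against the members in 70 relations, 14 lists by 5 members, with permutation p-values adjusted over all 70. By Pearson r, Bdh1 passed with 7 of 14 lists, Acat1 with 4, and Oxct1, Slc16a1 and Slc16a7 with 0. For Oxct1 and the skeletal muscle list r was 0.19 over all arrays, but 0.70 in DIO-R, 0.56 in DIO and 0.58 in Lean. Within slides 1, 2 and 3 it was -0.16, -0.59 and 0.58, and the relations within groups were not tested. Muscle was not alone in this. In DIO-R, DIO and Lean r with Oxct1 was 0.53, 0.52 and 0.54 for adipocyte. It was -0.58, -0.35 and -0.72 for nerve and Schwann cell, and -0.34, -0.81 and -0.55 for macrophage.

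Acat1 followed the skeletal muscle list. Pearson r was 0.92 and Spearman rho 0.90 over 23 arrays (both permutation p = 1e-05, the smallest that 1e+05 resamples can give, adjusted p = 0.0007), and r was 0.88 without the 2 arrays farthest from the median score. Within slides 1, 2 and 3 r was 0.58, 0.95 and 0.88, and within groups 0.97 in DIO-R, 0.97 in DIO and 0.92 in Lean. All 16 muscle genes were kept, and their summed signal, in multiples of the array's 75th percentile, ranged from 331 to 1842 in DIO-R, from 928 to 2256 in DIO and from 655 to 2642 in Lean. In DIO-R against DIO 16 of the 16 were lower, with a median log2 difference of -0.56 and none called, where 48.3% of all genes kept were lower. With the muscle score as a covariate Acat1 differed by 0.15 in DIO-R against DIO, by 0.13 in DIO-R against Lean and by -0.01 in DIO against Lean (limma adjusted p = 0.732, 0.558 and 0.956). The other 3 lists that passed by Pearson r were adipocyte (r = 0.68, adjusted permutation p = 0.00616), von Ebner gland (r = 0.57, adjusted p = 0.0332) and type II taste cell (r = -0.54, adjusted p = 0.0435). By rho the adipocyte list had 0.65 and the type II taste cell list -0.63 (adjusted permutation p = 0.0139 and 0.0183), while the von Ebner gland list had 0.34 (adjusted p = 0.315). Without the 2 farthest arrays r was 0.59 for adipocyte, 0.22 for von Ebner gland and -0.66 for type II taste cell. The von Ebner gland score holds 2 of the 5 genes of its list. Its relation over all arrays weakened without its 2 farthest arrays, DIO-R 5 and DIO 10, both on slide 2. Within slides 1, 2 and 3 r was 0.07, 0.86 and 0.83 for adipocyte, -0.26, 0.76 and 0.72 for von Ebner gland, and -0.32, -0.57 and -0.98 for type II taste cell.

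Bdh1 passed with 3 lists whose score it followed upward and 4 that it followed downward. With the endothelial list r was -0.76 (permutation p = 4e-05, adjusted p = 0.000933) and rho -0.75 (permutation p = 0.00011, adjusted p = 0.00385), with r = -0.82 without the 2 farthest arrays and -0.82, -0.78 and -0.58 within slides 1, 2 and 3. Within groups that r was -0.74 in DIO-R, -0.80 in DIO and -0.89 in Lean. With the basal keratinocyte list r was 0.74 (permutation p = 4e-05, adjusted p = 0.000933) and rho 0.72 (permutation p = 0.00017, adjusted p = 0.00397), with r = 0.75 without the 2 farthest arrays and 0.93, 0.81 and 0.47 within slides, and within groups 0.83 in DIO-R, 0.81 in DIO and 0.75 in Lean. With the differentiated keratinocyte list r was 0.68 (permutation p = 0.00037, adjusted p = 0.00616) and rho 0.70 (permutation p = 0.00025, adjusted p = 0.00437), with r = 0.69 without the 2 farthest arrays and 0.80, 0.69 and 0.70 within slides, and within groups 0.77 in DIO-R, 0.63 in DIO and 0.91 in Lean. The other 4 lists that passed by Pearson r were type II taste cell (r = 0.59), adipocyte (r = -0.59), skeletal muscle (r = -0.56) and erythrocyte (r = -0.55), with adjusted permutation p of 0.0266 to 0.044. By rho only adipocyte passed among these 4, with adjusted permutation p of 0.0338, against 0.0563 to 0.0736 for the others. For the erythrocyte list r within groups was -0.14 in DIO-R, -0.23 in DIO and -0.21 in Lean, each nearer to 0 than over all arrays. For the skeletal muscle list it was -0.44 in DIO-R, -0.57 in DIO and -0.66 in Lean, for adipocyte -0.40, -0.43 and -0.56 and for type II taste cell 0.82, 0.52 and 0.79 in the same groups. On slides 1, 2 and 3 r was 0.69, 0.74 and 0.03 for type II taste cell and -0.70, -0.70 and -0.30 for adipocyte. It was -0.87, -0.78 and -0.29 for skeletal muscle and -0.56, -0.44 and -0.78 for erythrocyte. Leaving out the 2 farthest arrays gave 0.47 for type II taste cell, -0.49 for adipocyte, -0.46 for skeletal muscle and -0.57 for erythrocyte. The remaining 7 lists did not pass with Bdh1, among them von Ebner gland (r = -0.25) and fibroblast (r = -0.50).

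Between DIO-R and DIO the genes of these lists are given as counts, where 51.7% of all genes kept were higher in DIO-R. In DIO-R against DIO 7 of 7 basal keratinocyte genes (median 0.21), 12 of 12 differentiated keratinocyte genes (0.38) and 6 of 7 type II taste cell genes (0.28) were higher. Lower were 6 of 6 endothelial genes (-0.25), 8 of 8 adipocyte genes (-1.29), 16 of 16 muscle genes and 6 of the 6 kept erythrocyte genes (-1.05). DIO-R against Lean had 7 of 7 basal keratinocyte, 0 of 12 differentiated keratinocyte and 3 of 7 type II taste cell genes higher. It also had 0 of 6 endothelial, 0 of 8 adipocyte, 1 of 16 muscle and 5 of 6 erythrocyte genes higher. Over all genes kept, 44.6% were higher in DIO-R than in Lean. DIO against Lean had 3 of 7 basal keratinocyte, 0 of 12 differentiated keratinocyte and 0 of 7 type II taste cell genes higher. It also had 5 of 6 endothelial, 3 of 8 adipocyte, 9 of 16 muscle and 6 of 6 erythrocyte genes higher. Over all genes kept, 41.1% were higher in DIO than in Lean. The differentiated keratinocyte median was -0.17 in DIO-R against Lean and -0.53 in DIO against Lean. None of the genes in these lists was called in any comparison. The summed signal of the basal keratinocyte genes ranged from 523 to 702 in DIO-R, from 337 to 676 in DIO and from 439 to 638 in Lean, and that of the endothelial genes from 7.87 to 11.4 in DIO-R, from 9.21 to 13.3 in DIO and from 8.39 to 14.3 in Lean. Both sums overlapped between the groups.

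With a score as a covariate, a setting added after seeing the data, Bdh1 differed between DIO-R and DIO by 0.43 for endothelial (limma adjusted p = 0.0240) and by 0.44 for differentiated keratinocyte (adjusted p = 0.0415), both called. It differed by 0.42 for basal keratinocyte (adjusted p = 0.108), by 0.49 for skeletal muscle (adjusted p = 0.0726) and by 0.50 for erythrocyte (adjusted p = 0.880), none of which passed. In DIO against Lean the Bdh1 difference was -0.08 with the differentiated keratinocyte score and -0.29 with the basal keratinocyte score. No fit used the adipocyte or type II taste cell score. The kept genes of each score used were all higher or all lower in DIO-R than in DIO. These fits therefore cannot divide the Bdh1 difference between DIO-R and DIO among cell types, and the part of cell makeup in it was not tested.

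**Figure D5:**
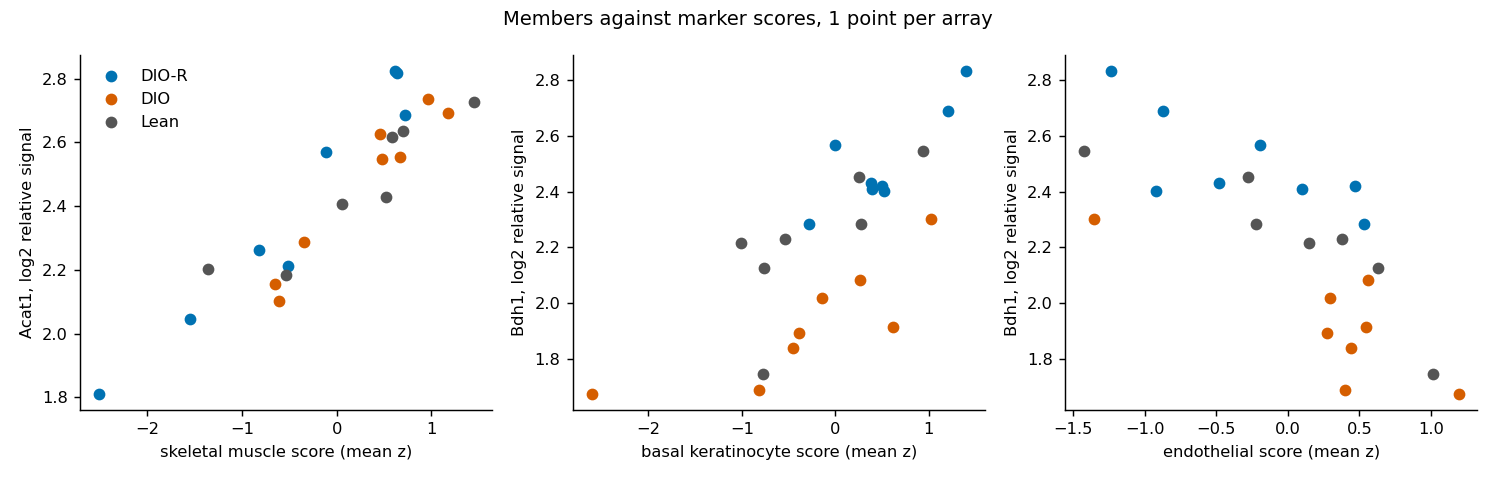
Relative signal (log2, y axis) of Acat1 against the skeletal muscle score and of Bdh1 against the basal keratinocyte and endothelial scores (mean z of each list, x axis), 1 point per array, coloured by DIO-R, DIO and Lean. Acat1 rises along the muscle score in all 3 groups. The DIO-R points of Bdh1, from 2.29 to 2.83, rise along the basal keratinocyte score (r = 0.83) and fall along the endothelial score (r = -0.74).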

How the data were processed

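Messenger RNA was measured on 23 1-colour Agilent mouse arrays from 25 ng of total RNA per sample, per the labels' protocols. Spot intensity as deposited was written by the scanner software, Agilent Feature Extraction in version 10.10.1.1 (per the file headers and the submitters' processing notes), and is corrected for background within an array but not normalized between arrays. Probe positions are in mm9, per the file headers. The authors' deposited matrix holds log2 values of 35829 probes with array medians of 7.63 to 7.64. How it was made is not given in the sources used here beyond the name limma, and it served as an alternative.

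Samples were grouped by the condition in their labels. Values are log2 intensity minus the array's 75th percentile over spots that are not controls, after leaving out outlier spots and averaging the spots of a probe. A gene's probe with the highest mean stood for it and was kept if well above background on at least 7 of 23 arrays. Current symbols were looked up by accession in RefSeq annotation (assembly GRCm38.p6), which matched 17348 of the 28365 genes kept. limma 3.58.1 (lmFit, eBayes, two-sided) in R 4.3.3 was fitted on all arrays with a mean per group, with Benjamini-Hochberg adjustment over all genes kept at 0.05; the script was tested on simulated data. Files were read with the data.table package (version 1.17.8), and Python 3.11.15 with matplotlib 3.10.9 made the figures. Correlations between members and with marker scores used two-sided permutation tests with 1e+05 resamples.

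The members, pathway lists and marker lists were chosen with earlier results of these data known. Named are the 5 members with all probes, of each pathway list the gene with the lowest p per comparison, and the 5 genes (3 for members other than Bdh1) with the highest correlation by values and by deviations from group means. The values of 1 gene of the pathway lists are not reported here. The alternatives were normexp, quantile normalization, the array median, the authors' table, other filters, the mean of all probes, slide and replicate blocks, only 2 groups, trend and robust eBayes, array weights, single slides, each array left out, and, added after seeing the data, 5 marker scores as covariates, DIO without 2 arrays, and each other Bdh1 probe. Both the slide and the scan are the same batch here.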

Additional observations from a re-analysis of the deposited data

Results flagged for a closer look

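Slc16a1 in the sample DIO 2 had a relative signal of -2.36, while the nearest DIO array had -1.90. The gap took 0.537 of the range of the 8 DIO arrays, past Dixon's 95% critical value. The 15 groups formed by 5 members in 3 conditions were checked in this way, and chance flags about 1 in 20 groups. Without DIO 2 the Slc16a1 difference was -0.13 in DIO-R against DIO and 0.12 in DIO against Lean, with limma adjusted p of 0.593 and 0.828.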

How the results depend on the processing

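With 7 or 8 arrays a group and signals well above background, the spread between arrays limits these results. The Bdh1 difference in DIO-R against DIO kept its direction in all 23 alternatives other than leaving out 1 array, at 0.42 to 0.71. Of the 20 that gave a test, 10 kept the call: normexp, quantile normalization, the authors' table, the filter on every array, the replicate block, only the 2 groups, trend and robust eBayes, array weights, and the differentiated keratinocyte and endothelial scores. It was no longer called with the array median (0.60, limma adjusted p = 0.0922), no filter (0.58), the mean of all probes (0.51), the slide block (0.58), the basal keratinocyte (0.42), erythrocyte (0.50) or skeletal muscle (0.49) score, without DIO 1 and DIO 6 (0.52), or with the second (0.50) or dimmest (0.44) probe. The cause was not tested, except that no filter tests more genes. Over all genes, 3 (erythrocyte score) to 38 (array weights) were called in DIO-R against DIO in place of 17, 19 (array median) to 109 (array weights) in DIO-R against Lean in place of 36, and 0 (differentiated keratinocyte score) to 84 (endothelial score) in DIO against Lean in place of 1. Where Bdh1 lost its call the number of members called was 0, as it was in the fits that lost the call with 1 array left out, where it ranged from 0 to 1 and the Bdh1 difference from 0.53 to 0.63. Within slide 3 the Bdh1 difference was -0.54 in DIO against Lean and 0.025 in DIO-R against Lean. The replicate block gave 0.58 (limma adjusted p = 0.0452) and changed no call of a member. Of same-numbered pairs, 1 of 7 of DIO-R and DIO had deviations correlated above 0.1, 1 of 6 of DIO-R and Lean, and 2 of 5 of DIO and Lean. The block correlation was -0.029. So few pairs cannot settle whether the numbers shared between groups pair the samples.

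Uncalled differences near 0 changed sign in some alternatives. Single slides also changed the sign for Acat1 and Slc16a1, whose slide values, given above, ran from -0.36 to 0.27. Oxct1 in DIO against Lean was 0.037 within slide 1. Slc16a7 was -0.17 in DIO-R against DIO within slide 3 and -0.11 in DIO against Lean within slide 1. Oxct1 in DIO against Lean was 0.053 with quantile normalization, 0.029 with the array median, 0.0058 with the slide block, 0.046 with array weights and 0.051 with the differentiated keratinocyte score. Acat1 in DIO-R against DIO was 0.047, 0.037, 0.18 and 0.15 with the basal keratinocyte, endothelial, erythrocyte and muscle scores. Acat1 in DIO-R against Lean was 0.0082 with the array median, 0.010 with the slide block, and 0.043, 0.0025 and 0.13 with the basal keratinocyte, endothelial and muscle scores. Acat1 in DIO against Lean was -0.0045, -0.035, -0.25 and -0.013 with those 4 scores and -0.047 without DIO 1 and DIO 6. Slc16a1 in DIO-R against Lean was 0.035 with quantile normalization, 0.047 with the array median, 0.013 with the authors' table, and 0.020 and 0.017 with the differentiated and basal keratinocyte scores. Slc16a1 was 0.027 in DIO-R against DIO and -0.041 in DIO against Lean without DIO 1 and DIO 6, and -0.0023 in DIO against Lean with array weights. Slc16a7 in DIO-R against DIO was -0.26 with the mean of all probes, which takes in a probe below background, -0.10 with array weights and -0.21 with the erythrocyte score. With 1 array left out, DIO-R against DIO ranged from -0.12 to 0.026 for Acat1, from -0.13 to 0.0034 for Slc16a1 and from -0.075 to 0.12 for Slc16a7. DIO-R against Lean ranged from -0.11 to 0.031 for Acat1 and from -0.065 to 0.039 for Slc16a1. DIO against Lean ranged from -0.042 to 0.028 for Oxct1, from -0.040 to 0.057 for Acat1 and from -0.016 to 0.12 for Slc16a1.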
